A study of Mus musculus with 4 samples.

Results

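Histamine synthesis, breakdown and reception were followed through 4 genes in mouse tumour-associated macrophages: Hdc, Hnmt, Hrh1 and Hrh2. They were taken by gene symbol from a table of 54532 genes, and all 4 passed the filter on low counts that left 13932 genes for testing. The set was selected on measured values of the same comparison, the counts of control against treated libraries, so the differences of these 4 genes between groups are given as descriptions, with no test. Live cells carrying CD45 and CD11b but not Gr1 had been sorted out of glioblastoma xenografts, and their RNA was sequenced in 2 control libraries and 2 libraries from the group given MK-8931 (verubecestat, which blocks the beta-secretase BACE1). The labels give the strain of both groups only as GBM mice, with no genotype, age or host strain, and do not say whether a library was 1 animal or a pool. Their protocol entries describe glioma stem cells treated for 3 days with the compound or vehicle, while another entry names sorted macrophages, which leaves the route of treatment unclear.

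Histamine is made from the amino acid histidine in a single step by histidine decarboxylase, the product of Hdc, which uses pyridoxal phosphate as its cofactor. Mast cells and basophils store it, and myeloid cells such as neutrophils and immature macrophages can make it on demand without storing it. Inside cells it is inactivated by histamine N-methyltransferase (Hnmt), which is the main route in brain, and outside cells by diamine oxidase (Aoc1). The H1 receptor (Hrh1) couples to Gq and calcium release, and the H2 receptor (Hrh2) couples to Gs and cyclic AMP, so that the same amine acts through different second messengers.

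Hdc is on chromosome 2 from 126593667 to 126619299, minus strand (GRCm38), and its main transcript has 12 exons, all of which carry coding sequence. Hrh2 is on chromosome 13 from 54192129 to 54236180, plus strand, and its main transcript has 3 exons. These are the members with higher counts in both MK-8931 libraries, and the 250 bases before the start of the main transcript of each are shown for that reason, from RefSeq's GRCm38.p6 tables, 5′ to 3′ on the gene's own strand. The window of Hdc is chr2:126618679-126618928 and that of Hrh2 is chr13:54191879-54192128. Capitals mark the GC box GGGCGG in both and, in Hrh2, also the ETS-type sequence GAGGAAGT.
Hdc: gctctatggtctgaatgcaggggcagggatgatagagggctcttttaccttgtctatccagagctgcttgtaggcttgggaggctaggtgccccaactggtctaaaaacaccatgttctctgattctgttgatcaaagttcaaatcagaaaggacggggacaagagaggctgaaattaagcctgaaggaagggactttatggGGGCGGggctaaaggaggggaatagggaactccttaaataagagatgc
Hrh2: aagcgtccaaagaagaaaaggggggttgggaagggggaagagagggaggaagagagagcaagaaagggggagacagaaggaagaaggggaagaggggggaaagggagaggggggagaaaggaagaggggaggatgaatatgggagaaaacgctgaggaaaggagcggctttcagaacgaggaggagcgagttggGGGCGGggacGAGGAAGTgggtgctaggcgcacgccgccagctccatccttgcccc

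Each of these windows held 1 GC box, 48 bases before the start in Hdc and 56 before it in Hrh2, counted to its first base. The other genes were matched to the same tables, so all 4 had a window. That of Hrh1 held 2 GC boxes and that of Hnmt held 0. A GC box was present in 32.7% of the 32851 windows of the same length, and GAGGAAGT in 2.44%. Both strands were searched, as they were for the TATA box TATAAA, the GATA site AGATAA and the C/EBP site TTGCNNAA, which matched 12.4%, 9.99% and 9.56% of windows. Among the 4 genes only Hrh1 held any of these 3, with 1 GATA site. G and C made up 48.8% of the window of Hdc, 59.6% of that of Hrh2, 71.2% of that of Hrh1 and 38.8% of that of Hnmt, against a median of 52.4% over all windows. The window of Hdc lies inside the annotated gene, because a non-coding transcript of Hdc starts further upstream, at 126619299, but it holds 0 exonic bases of that transcript. A match of letters describes these windows and shows no binding.

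The library totals ran from 18257930 to 20179875 counts, and 0 counts allow a level of up to 0.153 to 0.163 CPM (counts scaled to the TMM-adjusted library size), which 3 counts would give. Macrophage markers were abundant in every library. The 12 listed summed to between 12082 and 15537 CPM, with Cd68, a lysosomal membrane protein of macrophages, at 1602 to 1828 CPM. The 8 lymphocyte markers summed to at most 1.33 CPM, and 3 of them (Klrb1c, Ncr1 and Nkg7) had 0 counts in all 4 libraries. The microglial list summed to 2309 and 2868 CPM in control libraries and 1836 and 1982 CPM under MK-8931. Nothing in the labels ties the 2 libraries of a group to separate animals, and every standard error and p-value therefore reflects no more than how far these samples differ, which may be technical variation.

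Hdc showed by far the widest separation of the 4 genes. Controls gave 29 and 41 counts and treated libraries 1514 and 1929 counts, which is 1.56 and 2.09 CPM against 77.7 and 104.9 CPM. The 2 groups were far apart, and the lower MK-8931 library exceeded the higher control by more than any spread within a group. The fitted log2 fold change was 5.63 (SE 0.25, n = 2 per group), a fold of 49.6, and 14 of the 13932 tested genes had a larger one. With 1 library left out at a time the log2 fold change lay between 5.39 and 5.86. The MK-8931 libraries also differed from each other beyond counting error. Their 95% exact Poisson intervals were 73.8 to 81.7 CPM for MK-8931 1 and 100.3 to 109.7 CPM for MK-8931 2, while those of the controls, 1.05 to 2.24 and 1.50 to 2.84 CPM, overlapped. These intervals cover counting error only. In cells sorted in bulk, more cells that express a gene and more RNA per cell cannot be told apart.

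The nearest protein-coding genes on either side of Hdc, which are outside the rule for named genes, gave no such values. Gabpb1, a subunit of an ETS-family transcription factor complex that starts its annotated span 8142 bases beyond that of Hdc, was at 28.1 and 23.4 CPM in control libraries and 29.2 and 25.9 CPM under MK-8931 (log2 fold change 0.10, SE 0.18, adjusted p = 0.915 by edgeR's quasi-likelihood test). Slc27a2, a very long chain acyl-CoA synthetase 5423 bases away on the other side, had 0 counts in all 4 libraries.

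Hnmt, the histamine-inactivating methyltransferase (chromosome 2, 24002910 to 24049394, minus strand), was lower in only 1 of the treated libraries. It had 148 and 182 counts in control libraries, 73 in MK-8931 1 and 152 in MK-8931 2, or 7.97, 9.30, 3.74 and 8.26 CPM. The groups overlapped, since MK-8931 2 lay between the 2 controls. MK-8931 1 was below the other 3 libraries beyond counting error, at 2.94 to 4.71 CPM against a lowest bound of 6.74 CPM among them. The log2 fold change was −0.53 (SE 0.37), and it was −0.07 without MK-8931 1 and −1.22 without MK-8931 2.

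The H1 receptor gene Hrh1 (chromosome 6, 114397936 to 114483296, plus strand) was lower in each treated library than in either control. Controls gave 238 and 236 counts and treated libraries 155 and 174, or 12.8 and 12.1 against 7.95 and 9.46 CPM. The groups did not overlap, with the counting intervals of control 2 (10.6 to 13.7 CPM) and MK-8931 2 (8.11 to 11.0 CPM) overlapping. The log2 fold change was −0.51 (SE 0.23), and between −0.66 and −0.40 with 1 library left out. The coding sequence of Hrh1 lies in 1 of the 3 exons of its main transcript.

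The H2 receptor gene Hrh2 moved the other way. Controls gave 71 and 48 counts and treated libraries 156 and 145, or 3.82 and 2.45 against 8.00 and 7.88 CPM. Both MK-8931 libraries were above both controls, and they were closer to each other than the controls were. The log2 fold change was 1.34 (SE 0.33), a fold of 2.53, and it was 1.68 without control 1 and 1.05 without control 2. Of the 5935 exonic bases of Hrh2, 145 (2.44%) are shared with the antisense gene Gm16578 on the minus strand. Gm16578 had 0 counts in all 4 libraries, and whether the counting used strand is not given in the sources used here.

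Of the 4 genes, 1 (Hdc) was past the adjusted p threshold of 0.05, as were 0.998% of all tested genes, and nothing is read from that count because the same comparison chose the genes. Both MK-8931 libraries were above both controls for Hdc and Hrh2, as for 21.2% of tested genes, and below both for Hrh1, as for 20.0%.

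**Figure D1:**
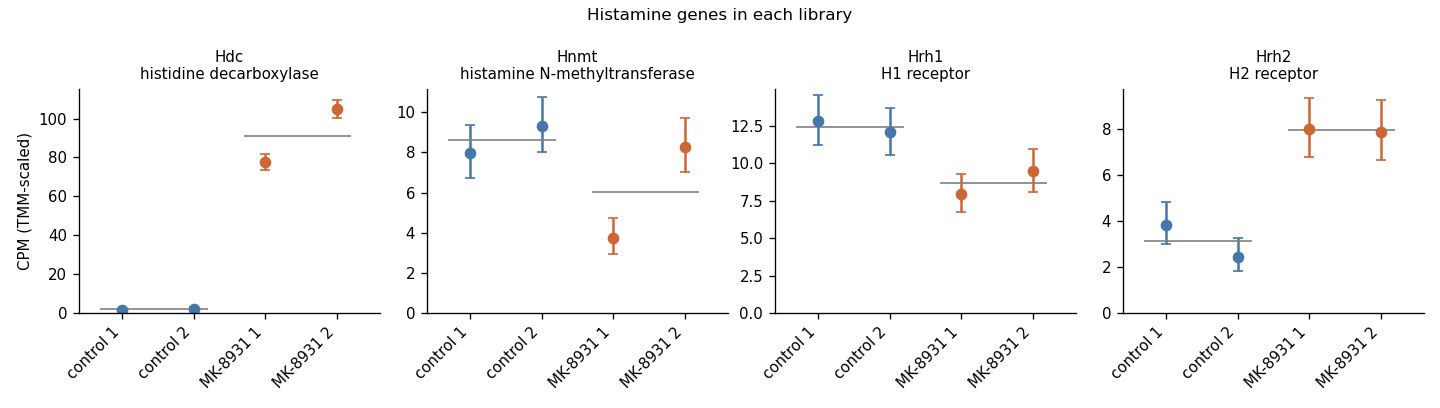
CPM (TMM-scaled, vertical axis from 0, a separate scale for each gene) of the 4 histamine genes in each library, with controls in blue and MK-8931 in orange. Bars are 95% exact Poisson intervals, which cover counting error only, and grey lines are group means. Hdc is at 77.7 and 104.9 CPM under MK-8931 against 1.56 and 2.09 CPM in control libraries, and Hnmt is low in MK-8931 1 alone.

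The plot of log2 fold change against mean level sets these genes among all genes tested. Hdc lay outside the cloud of genes not called, while Hnmt and Hrh1 lay within it. By size of log2 fold change in either direction, Hdc ranked 18 of 13932, Hrh2 592, Hnmt 2647 and Hrh1 2722.

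**Figure D2:**
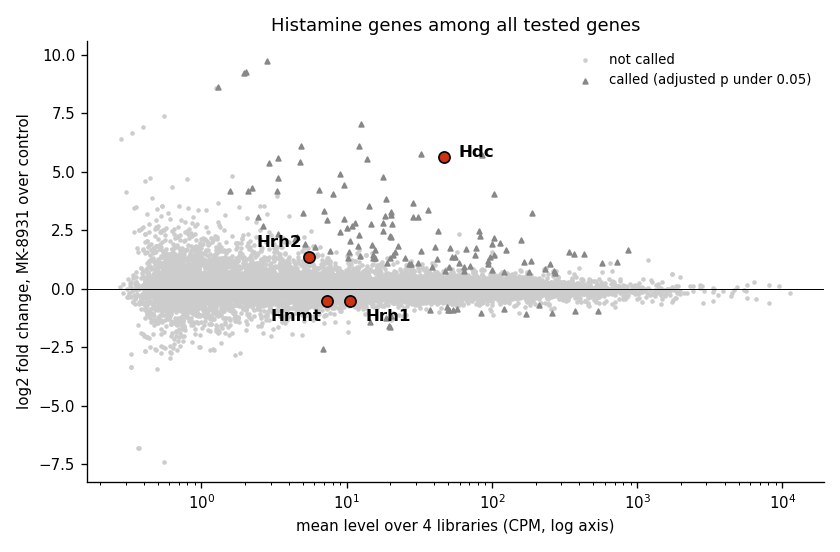
Log2 fold change of MK-8931 over control (vertical axis) against the mean CPM over the 4 libraries (horizontal log axis) for 13932 tested genes. Grey triangles are genes past the adjusted p threshold of 0.05, pale dots are the others, and red circles are the 4 histamine genes, with Hdc at 5.63 and Hrh2 at 1.34 above the line and Hnmt (−0.53) and Hrh1 (−0.51) below it.

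Per length, the enzymes exchanged places. In FPKM, the authors' count scaled to gene length and library size, Hnmt stood at 4.48 and 5.27 in control libraries and Hdc at 0.243 and 0.329. Under MK-8931 Hdc stood at 12.1 and 16.3 FPKM and Hnmt at 2.10 and 4.63 FPKM. The methylating enzyme was thus 18.4 and 16.0 times the decarboxylase in control libraries, and the decarboxylase was 5.74 and 3.51 times the methylating enzyme under MK-8931. These ratios depend on the length used. With the length of each main transcript in place of the deposited gene length, a setting added once the data had been seen, they were 7.37 and 6.41 in control libraries and 14.4 and 8.79 under MK-8931. Against the 12221 protein-coding genes tested, Hdc was at the 6.09 and 9.15 percentile of FPKM in control libraries and at the 70.1 and 76.6 percentile under MK-8931. The order in both controls was Hnmt, Hrh1, Hrh2, Hdc, and the counting intervals of neighbours in it overlapped only for Hrh2 and Hdc in control 2, at 0.414 and 0.329 FPKM. In both treated libraries the order was Hdc, Hnmt, Hrh1, Hrh2. The lower 3 were close in MK-8931 1, at 2.10, 1.77 and 1.34 FPKM, where neighbouring intervals overlapped, and apart in MK-8931 2.

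The receptor balance narrowed in both MK-8931 libraries. Hrh1 stood at 2.86 and 2.72 FPKM in control libraries and 1.77 and 2.11 FPKM under MK-8931, and Hrh2 at 0.640 and 0.414 against 1.34 and 1.32 FPKM. Hrh1 was therefore 4.47 and 6.56 times Hrh2 in control libraries and 1.33 and 1.60 times Hrh2 under MK-8931. The sum of both receptors was 3.50 and 3.13 FPKM in control libraries and 3.11 and 3.43 FPKM under MK-8931, so the groups overlapped in the sum while they did not in either receptor. The H2 share of that sum was 18.3% and 13.2% in control libraries and 43.0% and 38.5% under MK-8931.

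Which receptor was higher under MK-8931 turned on the length used. The deposited gene length of Hrh2 is 5935 bases and that of its main transcript in GENCODE M21 is 2789 bases, while the lengths for Hrh1 are 4450 and 3782 bases. With the main transcript lengths, Hrh1 was 2.47 and 3.63 times Hrh2 in control libraries but 0.733 and 0.885 times Hrh2 under MK-8931. Their sum was then 4.73 and 4.08 FPKM in control libraries and 4.94 and 5.28 FPKM under MK-8931. The groups no longer overlapped in it, but control 1 and MK-8931 1 were close. No counting interval was computed for the sum, so this separation may lie within counting error. Lengths of 6389 and 2392 bases for Hdc raised its level to 32.2 and 43.5 FPKM under MK-8931. By these lengths Hrh2 stood above Hrh1 in both treated libraries and above Hnmt in MK-8931 1. The counting intervals, rescaled in the same way, overlapped in each of these comparisons. The change within each gene is the same under either length.

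**Figure D3:**
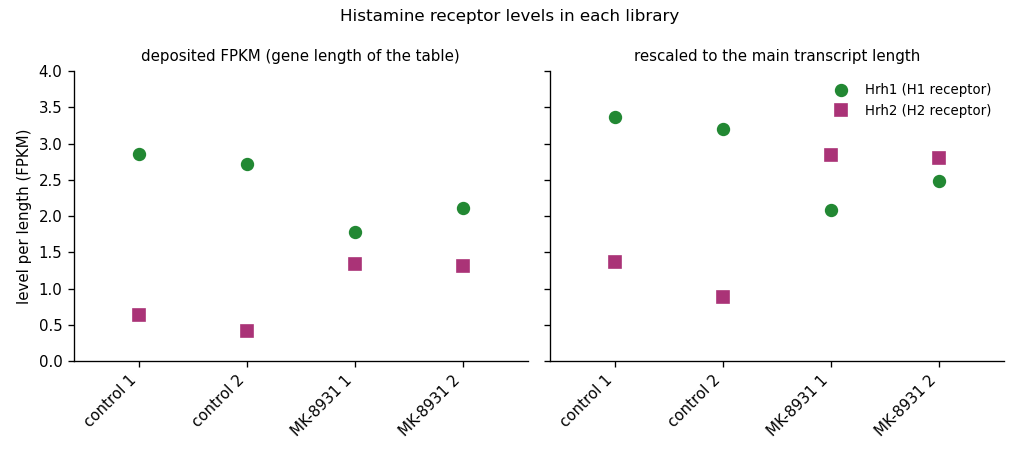
Level per length of Hrh1 (green circles) and Hrh2 (purple squares) in each library, in FPKM as deposited (left) and rescaled to the main transcript length (right), on a shared axis from 0. Hrh1 is above Hrh2 in every library on the left, and on the right Hrh2 is above Hrh1 in both MK-8931 libraries (2.85 against 2.09 and 2.80 against 2.48 FPKM). The counting intervals of Hrh1 and Hrh2, not drawn, overlap in both MK-8931 libraries on the right.

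The other receptors and the extracellular route of breakdown were not detected. Hrh3, Hrh4, Aoc1 (diamine oxidase) and the organic cation transporter Slc22a2 had 0 counts in every library. Maoa, of the monoamine oxidases, which act on methylated histamine downstream of Hnmt, was at 26.6 ± 4.13 CPM in control cells and 18.6 ± 3.72 CPM under MK-8931 (SD, n = 2, log2 fold change −0.52, SE 0.21, adjusted p = 0.410 by edgeR's quasi-likelihood test). Aldh7a1, one of the aldehyde dehydrogenases of the list, was at 34.3 ± 1.58 and 21.7 ± 3.81 CPM (−0.66, SE 0.18, adjusted p = 0.176). Of 13 listed genes of histamine handling 5 were tested and 0 passed, at a median log2 fold change of −0.52 against −0.003 over all genes. Another 2 genes were chosen after their values were seen, and both had too few counts to be tested. Slc29a4, a plasma membrane monoamine transporter, had 0 counts in both controls and 8 and 7 under MK-8931. Maob, the other monoamine oxidase of the list, had 0 and 1 counts in controls and 6 and 7 under MK-8931, the opposite direction to Maoa.

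Genes that supply or compete for histidine ranged from undetected to abundant. Of 14 listed genes 10 were tested, with 0 past the threshold and a median log2 fold change of −0.05. Ftcd, Slc38a5 and Uroc1 had 0 counts in all 4 libraries. Hal, the histidine ammonia-lyase that sends histidine to urocanate instead of histamine, was at 409 ± 68.3 CPM in control cells and 378 ± 21.1 CPM under MK-8931 (log2 fold change −0.12, SE 0.15, adjusted p = 0.861 by edgeR's test), a gene chosen after its values were seen. The smallest p-values of that list belonged to Carns1, the carnosine synthase (0.475 ± 0.166 and 1.75 ± 0.445 CPM, log2 fold change 1.87, adjusted p = 0.372), and Hars, the cytosolic histidyl-tRNA synthetase (−0.18, adjusted p = 0.732).

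Cofactor genes and other decarboxylases showed no call either. Among 8 genes for pyridoxal phosphate and for S-adenosylmethionine, the methyl donor of Hnmt, 0 passed, and the median was 0.05. Mat2a, which makes S-adenosylmethionine, was at 136.7 ± 12.1 and 101.3 ± 5.61 CPM (log2 fold change −0.43, adjusted p = 0.242 by edgeR's test), and Pdxp, a phosphatase of pyridoxal phosphate, at 0.902 ± 0.552 and 3.20 ± 1.21 CPM (1.82, adjusted p = 0.276). Of 6 other amino acid decarboxylases, 3 (Ddc, Gad1 and Gad2) had 0 counts in all libraries and 2 were tested. Odc1, the ornithine decarboxylase of polyamine synthesis, stood at −0.26 on the log2 scale (adjusted p = 0.597), and Csad, the cysteine sulfinic acid decarboxylase, −0.28 (adjusted p = 0.738).

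The signalling genes downstream of the receptors did not pass either. Of 11 genes on the H1 receptor's path through Gq, phospholipase C and calcium release, 0 passed, with a median of 0.15. Rgs2, which damps Gq signalling, was at 279.8 ± 38.5 CPM in control cells and 183.9 ± 9.84 CPM under MK-8931 (log2 fold change −0.61, SE 0.14, adjusted p = 0.101 by edgeR's test). Itpr1, a calcium release channel, was at 16.3 ± 1.90 and 27.2 ± 0.560 CPM (0.74, SE 0.18, adjusted p = 0.126). Of 14 genes on the H2 receptor's path through Gs, adenylyl cyclase and protein kinase A, 0 passed, with a median of −0.02. Crem, a transcription factor that cyclic AMP induces, was at 8.51 ± 0.760 and 14.9 ± 2.56 CPM (0.81, SE 0.23, adjusted p = 0.192), and Adcy3, an adenylyl cyclase, at 116.3 ± 11.7 and 89.5 ± 6.55 CPM (−0.38, adjusted p = 0.348).

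Together, 50 of the 66 genes in these 6 lists were tested, and edgeR's quasi-likelihood test called 0 in either direction, where it called 0.861% of all tested genes higher and 0.136% lower. At an unadjusted p under 0.05 there were 11, of which 6 were higher and 5 lower, where 10.8% of all tested genes lay under it. DESeq2 called 1, Rgs2 as lower (0.748% of all genes were lower by it), and limma-voom called 0. Without control 1 the test called 4 higher (Itpr1, Pde4b, Pdxp and Plcb2) and 3 lower (Aldh7a1, Mat2a and Rgs2), in a fit that called 3.50% of all genes higher and 1.64% lower. With no filter on low counts it called Itpr1 and Plcb2 higher and Aldh7a1 and Rgs2 lower, beside 1.55% and 0.744% of all genes.

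**Figure D4:**
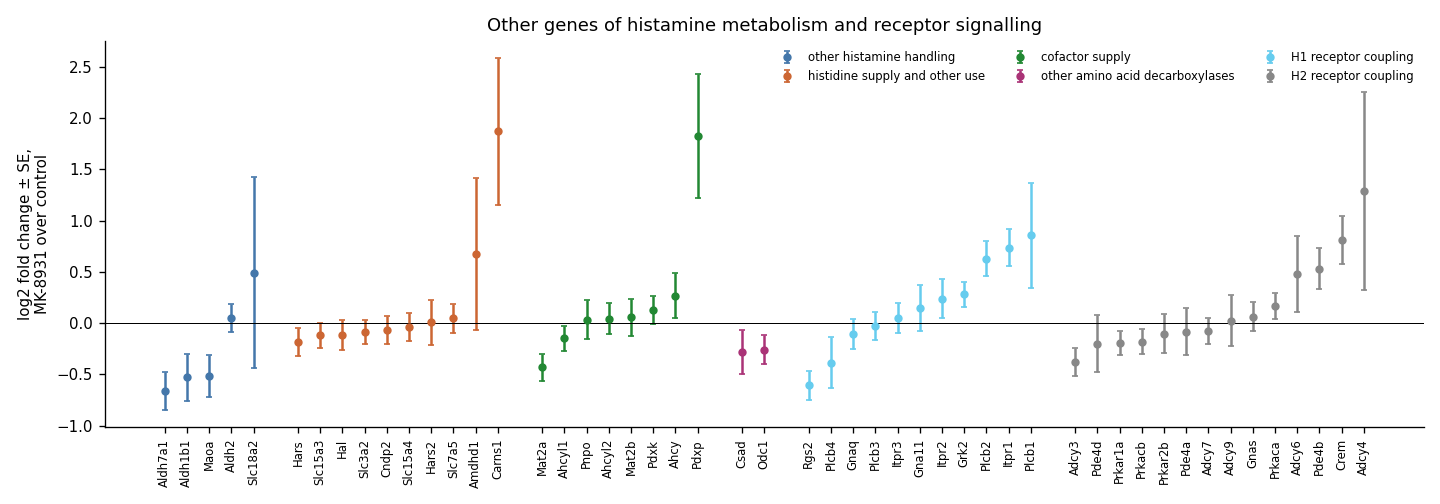
Log2 fold change of MK-8931 over control with its SE (vertical axis) for the 50 tested genes of 6 lists around the histamine genes, ordered within each list and coloured by list. None is past the adjusted p threshold of 0.05, and the values run from −0.66 for Aldh7a1 to 1.87 for Carns1.

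The genes whose levels over the 4 libraries followed Hdc most closely included markers of neutrophils, 4 of the closest 8. The neutrophil list holds 14 of the 13932 tested genes and was chosen with earlier results known, so this count is a description. Likeness was measured as the root-mean-square difference of centred log2(CPM + 0.5) profiles over 4 libraries, where 0 is the same profile. The closest 8 were Stfa2l1 (0.23), G0s2 (0.30), Cxcr2 (0.35), Lcn2 (0.52), S100a9 (0.55), Asprv1 (0.63), Cxcl3 (0.69) and Stfa2 (0.76). None was a near match, with 0 genes within 0.2 of Hdc. By this measure a gene with a large difference between groups is closest to others with a large one. The log2 fold changes of these 8 ran from 4.04 to 7.03. Stfa2l1, G0s2 and Stfa2 had at most 9 counts in a control library and passed the filter through the MK-8931 libraries. Their distances from Hdc therefore depend on the 0.5 CPM added. Stfa2l1 and Stfa2 belong to a cluster of near-identical stefin genes, so their counts are uncertain. Hrh2 was closest to H2-Eb1, an MHC class II chain (0.06), Helz2 (0.06) and Rab11fip1 (0.07), with 100 genes within 0.2 of it. Hrh1 was closest to Spats2l, Capn3 and Stard13, among 1533 genes within 0.2, a profile that many genes share. Hnmt was closest to Spa17, Efna2 and Plekhg4, the first 2 of them at no more than 19 counts in any library.

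Because Hdc is known in several other cell types, their markers were set beside it. Most of the listed mast cell and basophil genes were at or near 0 in all 4 libraries. Fcer1a and Ms4a2, subunits of the high-affinity IgE receptor, the mast cell receptors Mrgprb1 and Mrgprb2, and Tph1 had 0 counts, as did the basophil genes Mcpt8, Prss34, Gata1 and Il13. Cpa3, mast cell carboxypeptidase, had 3, 0, 3 and 4 counts in control 1, control 2, MK-8931 1 and MK-8931 2, and Gata2 had 6, 6, 10 and 4. In the same order Mcpt4 had 3, 9, 13 and 2, Tpsab1 2, 0, 7 and 0, Tpsb2 0, 4, 0 and 0, and Cma1 0, 1, 1 and 1. Of 13 mast cell genes 11, and of 11 basophil genes 9, had at most 20 counts in any library, where Hdc reached 1929. The remaining genes of these lists were Hpgds, a prostaglandin D synthase that macrophages also express (182 and 188 CPM in control cells, 162 and 151 CPM under MK-8931), Il3ra (40.2 and 44.9 against 48.3 and 46.1 CPM), Kit (20, 18, 78 and 30 counts) and Il4 (10, 14, 40 and 9 counts). The mast cell list summed to 184 and 190 CPM in control cells and 167 and 153 CPM under MK-8931, and the basophil list to 41.2 and 45.9 against 51.0 and 47.1 CPM. Of their tested genes, 2 in each list, edgeR's test called 0, and DESeq2 and limma-voom called 0. Only Kit (log2 fold change 1.49) was at an unadjusted p under 0.05 by edgeR's test, as were 10.8% of all tested genes.

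Most tested neutrophil markers were higher under MK-8931, as Hdc was. Of 20 listed genes 14 were tested, and 12 of them were higher and 0 lower by edgeR's test, against 0.861% of all tested genes called higher. Ltf (log2 fold change 2.65, adjusted p = 0.323) and Padi4 (−0.43, adjusted p = 0.925) were not called. The list was chosen with earlier results of these data known, so the count is a description and no independent evidence. The list summed to 158.0 and 157.5 CPM in control libraries and 698.0 and 1153 CPM in MK-8931 1 and MK-8931 2. Both this sum and Hdc were higher in MK-8931 2 than in MK-8931 1. Between the controls the sums were nearly equal and the counting intervals of Hdc overlapped, so no order is read there. Csf3r, the receptor for granulocyte colony-stimulating factor, was at 64.2 and 56.5 CPM in control cells and 216.9 and 292.1 CPM under MK-8931, and S100a9 at 1.51 and 4.85 against 87.8 and 247.7 CPM. Of the 20 neutrophil genes 7 had at most 20 counts in any library. Among them was the defining neutrophil gene Ly6g, part of the Gr1 antigen that the sort selected against, with 0, 0, 0 and 14 counts. The granule protease Elane had 0 in all libraries. The others were Padi4, Mpo (7, 4, 17 and 5 counts), Ngp (7, 0, 5 and 7), Cxcr1 (1, 1, 4 and 10) and Camp (2, 0, 0 and 3). Both controls, where Ly6g had 0 counts, held Csf3r at 64.2 and 56.5 CPM. Whether cells other than neutrophils express the listed markers here was not tested. The part of neutrophils in the level of Hdc was not tested.

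Hdc did not keep a fixed ratio to most of these genes. Its ratio to Cxcr2, in CPM not scaled to length and compared only between libraries, was 1.00 and 2.56 in control libraries and 1.46 and 1.41 under MK-8931, so the groups overlapped. Its ratio to S100a9 was 1.04 and 0.432 in control libraries and 0.884 and 0.423 under MK-8931, again overlapping. Against Csf3r the ratio was 0.0243 and 0.0371 in control libraries and 0.358 and 0.359 under MK-8931, and against Mmp8, the neutrophil collagenase, 0.127 and 0.157 against 1.30 and 1.25. The control libraries thus held more Csf3r and Mmp8 for each count of Hdc.

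**Figure D5:**
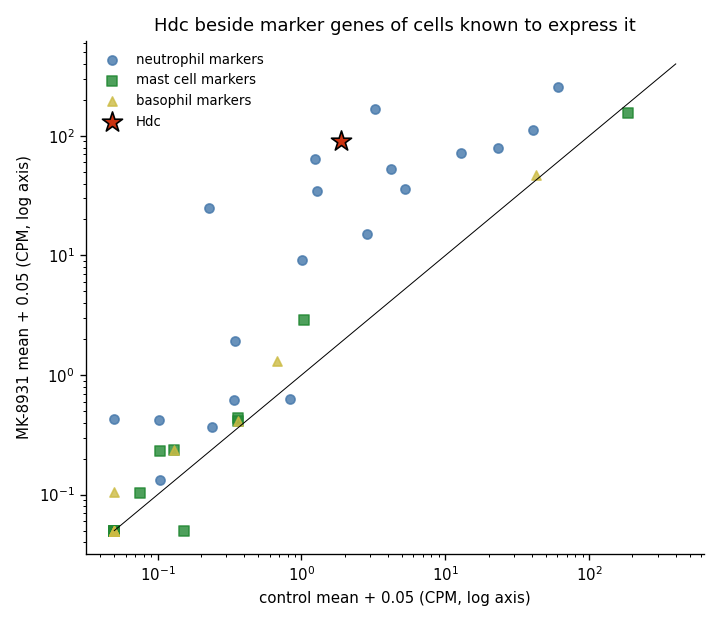
Mean CPM under MK-8931 (vertical) against mean CPM in control cells (horizontal), each plus 0.05 on a log axis, for Hdc (red star) and the listed neutrophil (blue circles), mast cell (green squares) and basophil (yellow triangles) markers. The line marks equal levels. Hdc lies among the neutrophil markers above the line, while most mast cell and basophil markers are at the lower left, near 0 in both groups. So are the 7 of 20 neutrophil markers that had at most 20 counts in any library.

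Other markers stood beside these values as well. These lists too were chosen with earlier results known, so their counts are descriptions. Of 9 monocyte genes 5 were higher by edgeR's test, where 0.861% of all tested genes were. The monocyte chemokine receptor Ccr2 was at 69.0 and 40.0 CPM in control cells and 133.2 and 145.1 CPM under MK-8931 (adjusted p = 0.0359 by that test). That list summed to 7010 and 6602 CPM in control cells and 7361 and 6908 CPM under MK-8931, mostly Fn1. The platelet list summed to 165 and 170 CPM against 332 and 429 CPM, mostly Pf4 (157 and 167 against 298 and 387 CPM). Of its 3 tested genes 2 were higher (Pf4 and Ppbp), where 0.861% of all tested genes were. The third, Itga2b, was level (log2 fold change −0.03, adjusted p = 0.996 by edgeR's test). In the 4 libraries Gp9 had 4, 0, 9 and 5 counts, Gp6 had 6, 0, 0 and 0, and Gp1bb had 0 in all. Endothelial markers, cells known for Hrh1, summed to 53.2 and 45.9 CPM in control cells and 65.8 and 59.3 CPM under MK-8931, with 0 of 6 tested genes called. Of them 2 had an unadjusted p under 0.05, as did 10.8% of all tested genes, and lay in opposite directions, Pecam1 (log2 fold change 1.53) and Cdh5 (−0.95). The dendritic cell list summed to 173 and 133 against 189 and 237 CPM, and the neural and glial list, mostly Mbp, to 72.1 and 67.8 against 62.6 and 62.6 CPM. The part of these cells in the receptor values was not tested.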

How the data were processed

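RNA from sorted macrophages was sequenced in 2 control and 2 MK-8931 libraries, grouped by their titles. Per the file headers, the authors deposited raw counts for each gene. FPKM values were also deposited by the authors, and equal the count over the table's gene length times 1 factor a library. Aligner, counting tool and strand setting are not stated there. The submitters' processing notes name CASAVA and mm9. Of 54409 gene identifiers shared with GENCODE M21, 98.3% have the same GRCm38 coordinates, including the 4 members, so GRCm38 is used.

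Counts were fitted with edgeR 4.0.16 in R 4.3.3 (filterByExpr, minimum count 10; TMM; two-sided quasi-likelihood F test with robust dispersions), and p-values were adjusted by Benjamini-Hochberg over 13932 genes and a threshold of 0.05. CPM are TMM-scaled, and the SE is the absolute log2 fold change over the square root of F. DESeq2 1.42.0, limma-voom (limma 3.58.1), other scalings, no filter, a replicate block and leaving out each library were alternatives. Libraries of a group differed by more than counting noise (chi-square over its degrees of freedom, 29.7 for controls and 17.1 for treated). The members and lists were chosen with earlier results of these data known. Named genes were the members, their nearest profiles (8 for Hdc, 3 for others), from each pathway list those past the threshold or else the 2 with the smallest p, and in marker lists up to 4 of the highest level plus mast cell and basophil genes at 0. Some marker genes that this takes are given only within their list's sum. Other genes, among them Mmp8, Ltf, Padi4, Ly6g and Elane, were named outside this rule.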

Additional observations from a re-analysis of the deposited data

How the results depend on the processing

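The log2 fold changes of Hdc, Hnmt, Hrh1 and Hrh2 kept their direction under each of the 10 alternatives fitted to the counts. In the alternatives that kept every library, Hdc, Hnmt and Hrh1 also kept their side of the threshold. These statements are descriptions only, since the same comparison chose the genes. Hrh2 (1.34) crossed the adjusted p threshold with no filter on low counts (1.32), with the replicate block (1.36) and without control 1 (1.68), a description only, since this comparison chose the gene. With 1 library left out, its values ran from 1.05 to 1.68. Over all genes, 120 were higher and 19 lower. There were 366 and 176 with no filter, 246 and 98 with DESeq2, 30 lower with limma-voom, and 468 and 275 with the replicate block, and with 1 library left out 85 to 520 higher and 10 to 243 lower, the highest of each without control 1. In the lists, with 0 calls in the main analysis, no filter gave 1 lower for histamine handling and 2 higher and 1 lower for H1 receptor coupling, and DESeq2 gave 1 lower for the latter. The replicate block gave 1 lower for histamine handling, 1 lower for cofactor supply, 2 higher and 1 lower for H1 coupling and 1 higher for H2 coupling. Leaving out 1 library gave 0 to 1 lower for histamine handling, 0 to 1 in each direction for cofactor supply, 0 to 2 higher and 0 to 1 lower for H1 coupling and 0 to 1 higher for H2 coupling. The cause of these moves was not tested. The numbers pair the samples only by name: deviations of same-numbered libraries correlated at 0.197 over 2 pairs. With main transcript lengths, the mean ratio of Hrh1 to Hrh2 went from 5.51 to 3.05 in controls and from 1.46 to 0.809 with MK-8931. The receptor sum went from 3.32 to 4.41 and from 3.27 to 5.11 FPKM, and the ratio of Hdc to Hnmt from 0.0583 to 0.146 and from 4.63 to 11.6, because the lengths differ. Counts of 29 to 48 in a control library leave Hdc and Hrh2 with wide counting intervals there.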
